A study of Mus musculus with 8 samples.

Results

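The genes described here encode the proteins of the cytosolic ribosome. A gene was taken as a member when RefSeq lists it as protein-coding in mouse and its symbol is Rpl or Rps with a number, or Rpsa, Rplp0, Rplp1 or Rplp2, leaving out the Rps6k kinases and pseudogenes. The choice used names and no measured value. It gave 84 of the 27178 genes counted, 52 of the large subunit and 32 of the small subunit, spread over 19 chromosomes with 4 members on X.

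Messenger RNA was sequenced from embryonic mouse cortex in 8 libraries, 2 for each of 4 conditions, in 2 experiments about Lockd, a long noncoding RNA. In the knockdown experiment, ICR embryos received a control plasmid or a plasmid for a short hairpin RNA (shRNA) against Lockd, each at 3 µg/µl, by in utero electroporation at E14.5 (embryonic day), and their GFP-positive cortical cells were sorted at E16.5. Both groups are labelled wild type in genotype and carry a plasmid. The knock-in experiment used cortices of E13.5 embryos on C57BL/6, either wild type or PlyA-KI, dissected whole and pooled, with no electroporation or sort. What the PlyA-KI allele is, the labels leave unsaid, and the name is kept as given. How many embryos or litters stand behind a library is also unstated, and p-values therefore reflect the spread between these libraries alone.

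Libraries of the knockdown experiment held 12805874 to 15911118 counts and those of the knock-in experiment 35167646 to 47460020. Lockd itself was at 8.90 and 7.80 CPM (counts scaled to 1e+06 per library) in control, 4.85 and 2.83 in shRNA, 22.1 and 24 in wild type and 0.102 and 0.0569 in PlyA-KI. Its levels did not overlap between the groups of either experiment. All 8 markers of radial glia and all 8 of cortical neurons had counts in every library. Markers of erythroid cells summed to 5.60 to 15.8 CPM in the sorted cells and to 296 to 538 CPM in the whole cortices.

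A ribosome joins a small subunit, which reads the messenger RNA, to a large subunit, which forms the peptide bond. Cells make its proteins in matched amounts, and much of the matching lies in translation: many of these messenger RNAs start with a C followed by a stretch of pyrimidines (C and T in DNA letters), the 5′ terminal oligopyrimidine or TOP motif, through which growth signals set how well they are translated. Dividing cortical progenitors make many ribosomes, and mouse mutants in single ribosomal protein genes can have defects of particular tissues.

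Sequences around annotated starts are shown because the TOP motif is the best known feature that members share. RefSeq promoters of build GRCm38.p6 were found for 64 member genes, and 27 of them, 42.2%, had a run of at least 6 C or T letters. The run was read on the gene's own strand and counted from a C within 5 bases of an annotated start. Any C or T letters before that C, as in Rpl35 below, were left out. Of all genes, 11.9% had such a run. Below, capitals mark the run, for 4 members with one and 2 without, at chr4:86857348-86857377 (Rps6, minus strand), chr7:109519185-109519214 (Rpl27a, plus), chr17:33955646-33955675 (Rps18, minus), chr2:39005112-39005141 (Rpl35, minus), chr5:115559457-115559486 (Rplp0, plus) and chrX:74270806-74270835 (Rpl10, plus).
Rps6: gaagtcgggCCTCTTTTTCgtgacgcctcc
Rpl27a: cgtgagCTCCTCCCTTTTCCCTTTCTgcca
Rps18: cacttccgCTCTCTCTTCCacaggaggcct
Rpl35: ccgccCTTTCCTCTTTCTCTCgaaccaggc
Rplp0: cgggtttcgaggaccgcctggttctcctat
Rpl10: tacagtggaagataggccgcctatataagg
A run is a match of letters near an annotated start and not a measured transcript end, and its absence says only that these letters are not in this window.

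Members also share sequence with other genes of the annotation, mostly processed pseudogenes, which touches how surely a read can be given to its gene. Of the 75-base windows along a member's GENCODE M21 transcripts, a median of 26.7% occurred exactly in the transcript of another annotated gene (range 0 to 84.6% over 83 members), against a median of 0.0% over 141 other genes of ribosome production and translation. In 20 members at least 50% of windows were shared, and in 18 fewer than 10%. Over all its windows Rpl21 shared 16.4% and Rpl29 28.2%, beside the members' median of 26.7%. The windows below are coding sequence of these members, which had the lowest counts in sorted cells against whole cortex. For each, the coding window found in the most other genes is shown. That of Rpl21 (chr5:146832890-146837032) is found in 30 other genes and that of Rpl29 (chr9:106428889-106431568) in 16, the coordinates being those of the whole gene on GRCm38.p6.
Rpl21: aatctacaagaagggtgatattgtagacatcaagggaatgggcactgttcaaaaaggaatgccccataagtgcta
Rpl29: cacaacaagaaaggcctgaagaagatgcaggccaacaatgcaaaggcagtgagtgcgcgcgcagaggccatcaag
No source used here says how reads that fit several genes were counted, and the level of a member with many shared windows is uncertain.

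Nearly all members were abundant. FPKM (counts per kilobase of gene and scaled to library size, deposited by the authors) averaged over 100 across the 8 libraries for 73 of the 84 members. The highest mean FPKM was that of Rps26, at 1386, followed by Rpl41, Rps15, Rpl35 and Rpl23a. Rps26 sits at the exit of the messenger RNA channel, and Rpl41 is the shortest ribosomal protein. Rps26 read 1056 and 1149 FPKM in control, 948 and 843 in shRNA, 1571 and 1804 in wild type and 1713 and 2002 in PlyA-KI, so the whole cortices all lay above the sorted cells.

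At the other end stood paralogs that are known from other tissues. Rpl10l, a testis paralog of Rpl10, had no count in any library. Rpl3l, a paralog of Rpl3 found in striated muscle, and Rpl39l, a testis paralog of Rpl39, stayed at or below 0.102 CPM in every library. Rpl39 itself, a peptide of the exit tunnel, read only 0.00 to 0.597 CPM. Of its windows 7.6% were shared with other annotated transcripts, and whether the assignment of reads lowered its count was not tested. These 4 members failed the filter on low counts. The other 80 passed it in every comparison, among them Rpl32l, at 0.232 to 3.12 CPM.

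Paralogs that were detected kept different proportions to their partners. Rpl22l1, whose product can replace that of Rpl22, was at 49.5 and 49.7% of the FPKM of Rpl22 in wild type and at 54.2 and 53% in PlyA-KI. In sorted cells it was at 89.0 and 67.9% in control and 71.9 and 61.7% in shRNA, so the whole cortices all lay below the sorted cells. Rps27l, a p53 target, was at 46.5 to 47.4% of Rps27 in wild type and 16.3 to 17.4% in control. Rps27l itself read 44.4 and 44 CPM in wild type and 40.5 and 34.8 in control. Its partner Rps27 read 116 and 118 CPM in wild type and 308 and 248 in control. Rpl7l1 stayed at 4.44 to 5.47% of Rpl7 in all 8 libraries.

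**Figure D1:**
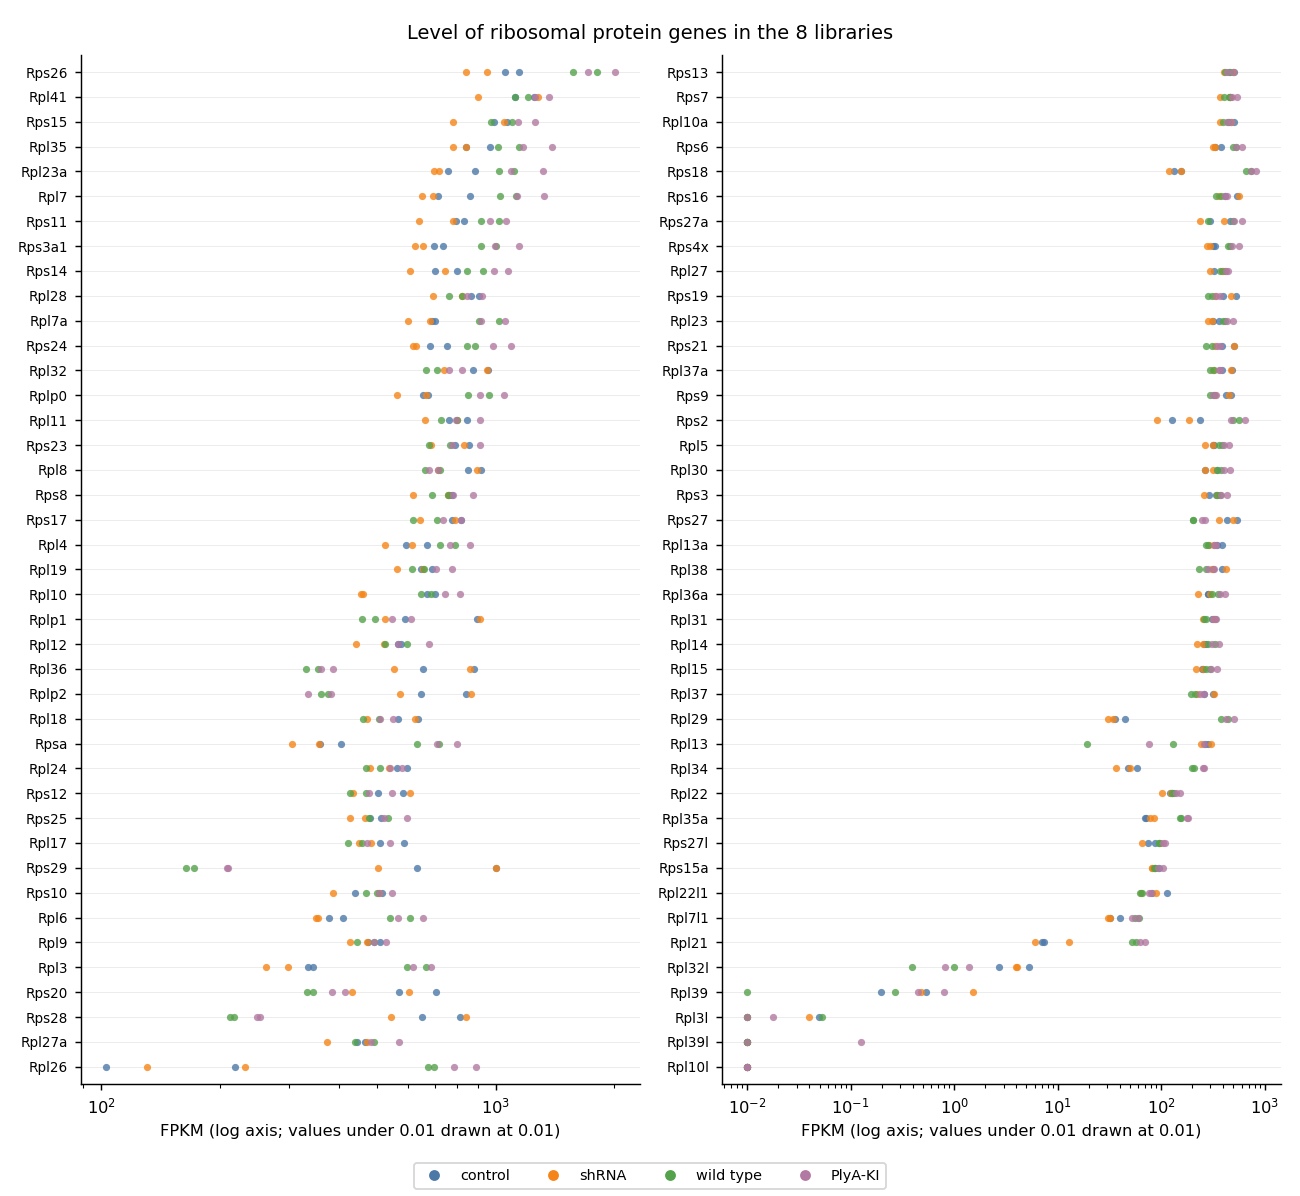
FPKM of the members reported here (rows, ordered by mean) in the 8 libraries (points, coloured by group) on log axes that differ between the left and the right panel. Most members lie between 100 and 2002 FPKM, Rps18, Rpl29, Rpl21, Rps28 and Rps29 separate sorted cells from whole cortex, and the lowest 4 are near or at 0.

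Members together held 3.02 and 2.87% of the counts in control, 2.90 and 2.39% in shRNA, 3.03 and 3.32% in wild type and 3.37 and 3.81% in PlyA-KI. Control and shRNA overlapped, while both PlyA-KI libraries lay above both wild-type ones, the nearest pair 3.32 and 3.37%. An exact two-sided permutation test gave p = 0.667 for shRNA against control and p = 0.333 for PlyA-KI against wild type. With 2 against 2 libraries 0.333 is the smallest p it can give. The summed counts of large subunit members were 1.46 to 1.56 times those of the small subunit in all 8 libraries, a narrow range.

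**Figure D2:**
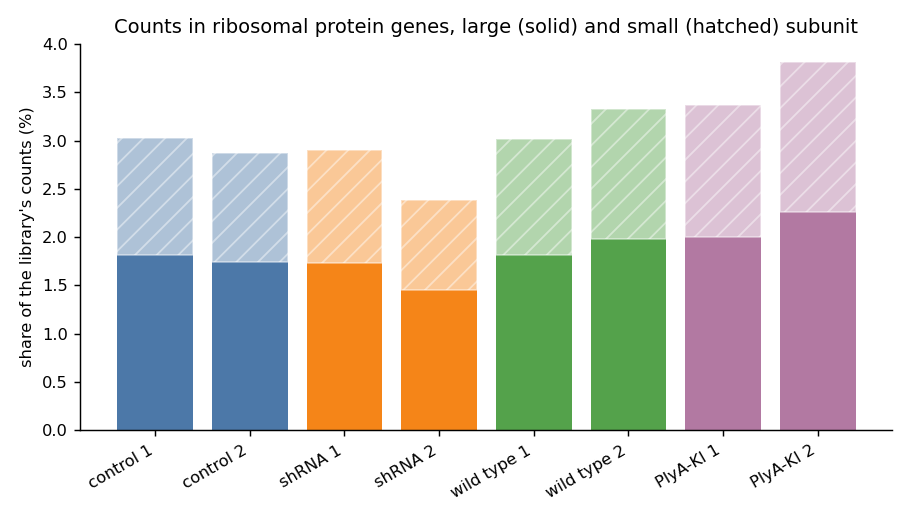
Share of each library's counts (%) held by large (solid) and small (hatched) subunit members, one bar per library, coloured by group. The total runs from 2.39% in shRNA 2 to 3.81% in PlyA-KI 2, and the split between subunits is alike in all bars.

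The first comparison asks what Lockd shRNA did to these genes in sorted E16.5 cells. No member passed the test, and no gene of the 13758 tested did (0% called in either direction by edgeR's quasi-likelihood test, adjusted over all genes). The members nonetheless lay mostly a little lower in shRNA: 74 of 80 had a log2 fold change below 0, where 50.1% of all genes did, and 6 above 0, where 49.9% did. Their median was -0.13 against 0.00. Large and small subunit members had medians of -0.12 and -0.14. In 29 members both shRNA libraries lay below both controls, 36.2% of those tested beside 19.8% of all genes. One member, Rpl35a, lay above in both, beside 15% of all genes.

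This shift rests on 1 library. Without shRNA 2 the members' median was 0.01 and 37 lay below 0. Without shRNA 1 it was -0.28. Within each group, members were also higher in replicate 1 than in replicate 2, by a median log2 of 0.10 in control and 0.29 in shRNA. Among members under 500 bases these medians were 0.28 and 0.51, and among those of 1000 or more 0.04 and 0.23.

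Rpl10, which joins the large subunit late in its assembly and lines the peptidyl transferase centre, had the smallest p. It read 532 and 559 CPM in control and 367 and 363 in shRNA, and in the knock-in experiment 515 and 547 in wild type and 590 and 644 in PlyA-KI. The shRNA libraries lay below the other 6 libraries. Its log2 fold change in the knockdown was -0.56 ± 0.13 (SE), with an unadjusted edgeR p of 0.000729 and an adjusted p of 0.198. The Wald test of DESeq2 called it, at an adjusted p of 0.0183, where that test called 0.311% of genes lower and 0.165% higher, no other member among them. Rpl10 was the only member with an unadjusted p under 0.05, beside 4.15% of all genes for lower values and 3.36% for higher. Of the 75-base windows of Rpl10, 71.1% were shared with other annotated genes, which leaves its level uncertain. Whether this bears on the difference was not tested.

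The other members named by their p gave no call. Rps26 read 473 and 515 CPM in control and 425 and 378 in shRNA (log2 fold change -0.29 ± 0.13, edgeR adjusted p = 0.67). Rpl3, a core protein of the large subunit, read 469 and 456 against 404 and 356 CPM (adjusted p = 0.703). Rpl13a and Rpl12 had log2 fold changes of -0.25 and -0.23. Among the 6 above 0, Rpl21 read 13.7 and 13.2 CPM in control and 11.1 and 23.9 in shRNA, and Rpl26 read 56.0 and 119 against 71.3 and 126, and both overlapped between groups.

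Members with known roles outside the bulk of translation lay within this narrow range. Rpl5 and Rpl11, which with 5S rRNA bind the p53 inhibitor Mdm2, had log2 fold changes of -0.13 and -0.12. Rps6, the substrate of the S6 kinases, had -0.12, Rps19, mutated in Diamond-Blackfan anaemia, -0.19, and Rpl38, which aids translation of Hox messenger RNAs, 0.09. The stalk proteins Rplp0, Rplp1 and Rplp2, which recruit translation factors, had -0.10, -0.03 and -0.03. Of 11 genes of ribosomal stress and p53, 10 lay above 0 with a median of 0.33. Cdkn1a, an inhibitor of cyclin-dependent kinases, had 0.84 and Phlda3, an inhibitor of Akt, 1.04, and none of the 11 passed (smallest adjusted p = 0.229). Markers moved beside these values: 4 of 8 neuronal markers lay higher in both shRNA libraries (summed 5275 and 5700 against 6386 and 6503 CPM), beside 15% of all genes. Of 8 radial glia markers 3 lay lower in both (1088 and 1036 against 962 and 845), beside 19.8% of all genes. Of 4 intermediate progenitor markers 3 lay lower in both, with sums of 842 and 1045 against 697 and 613 CPM. Their part in the result was not tested.

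**Figure D3:**
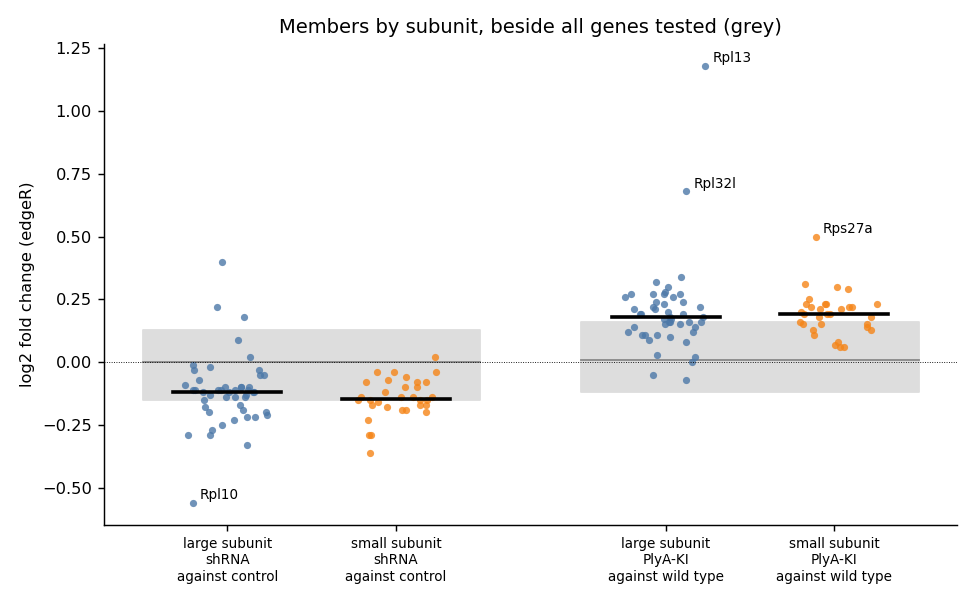
edgeR log2 fold change of each tested member (points) by subunit in the knockdown and the knock-in comparison, with the members' median (black line) and, in grey, the quartiles and median of all genes tested. Members centre on -0.12 and -0.14 in the knockdown, and on 0.18 and 0.19 in PlyA-KI cortex, with Rpl10 lowest and Rpl13 highest.

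The next comparison sets PlyA-KI against wild-type cortex at E13.5. Members lay a little higher in PlyA-KI, by a median log2 of 0.19 against 0.01 over all 15398 genes tested, and 77 of 80 were above 0, where 51.8% of all genes were. The 32 small subunit members were all above 0. None passed edgeR's test, in which 0.0455% of genes were called higher and 0.00649% lower. At an unadjusted p under 0.05, 32 members were higher, 40.0% of those tested beside 6.43% of all genes, and none was lower, beside 6.05%. DESeq2 called 2 members higher, beside 0.511% of genes, and no member lower, beside 0.401%. Both PlyA-KI libraries lay above both wild-type ones in 54 members, 67.5% beside 23.7% of all genes, and below in none, beside 20%.

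Among the members with the smallest p were Rpl34, Rps27, Rpl31 and Rps29. Rpl34 read 118 and 124 CPM in wild type and 151 and 154 in PlyA-KI, with a log2 fold change of 0.32 ± 0.08 (SE, edgeR adjusted p = 0.221). Rps27, a zinc finger protein of the small subunit, read 116 and 118 against 141 and 151 CPM (0.31, adjusted p = 0.257). In both the groups did not overlap, by a margin wider than the distance between replicates. Rpl31 and Rps29, of the tunnel exit and of the small subunit head, each had 0.30. The 3 members below 0, where 48.2% of all genes lay, were Rpl7l1 at -0.07, Rplp2 at -0.05 and Rpl8, which rounds to 0.00.

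The size of the shift depended on gene length and on single libraries. Members are short, with a median length of 693 bases against 2800 for all genes tested. With each library's trend on gene length removed, the median was 0.06 and 60 of 80 members were above 0. Without PlyA-KI 2 it was 0.08, and without PlyA-KI 1 it was 0.28. Members were lower in replicate 1 than in replicate 2, by a median log2 of -0.13 in wild type and -0.15 in PlyA-KI, set against 0.19 between the groups.

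Other RNA lay higher beside the members. All 6 erythroid genes found lay higher in both PlyA-KI libraries, summing to 374 and 538 CPM against 296 and 316, as did 12 of 15 mitochondrially encoded genes (2.86 and 3.09% of counts against 2.25 and 2.07%). Of the cortical markers, 5 of 8 radial glia genes lay lower and 1, Fabp7, higher, beside 20 and 23.7% of all genes. Of 8 neuronal genes 3 lay higher and 0 lower. Their part in the result was not tested. Fewer cells of a type and less RNA per cell cannot be told apart in such bulk samples.

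Genes that build ribosomes centred near 0 or below. Of 54 ribosome assembly genes 15 lay above 0 and 39 below, with a median of -0.07 (-0.09 with the length trend removed, where the members' was 0.06), and none passed the test. Tcof1, a factor for ribosomal RNA transcription, had -0.34 and Rrp1b, a nucleolar protein, -0.31. RNA polymerase I and its factors had a median of -0.07, with the subunit gene Polr1a at -0.32. The medians were 0.02 for 5 elongation factors, -0.06 for 29 initiation factors, with Eif3e at 0.27 and Eif4g1 at -0.31, and -0.05 for 7 other known TOP messenger RNAs, of which Tpt1 had 0.26. No difference between these lists and the members was tested.

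A pair of members stood out by their spread, and were chosen after their values were seen. Rpl13 read 101 and 15.0 CPM in wild type and 59.8 and 205 in PlyA-KI, but 189 to 235 CPM in all 4 libraries of sorted cells. Its log2 fold change of 1.18 ± 0.70 was the highest of the members and was not called (edgeR adjusted p = 0.508), and the groups overlapped. Rps27a, made as a fusion with ubiquitin, read 236 and 405 CPM in wild type and 416 and 494 in PlyA-KI, a wider gap between the wild-type libraries than between the groups' nearest libraries (log2 fold change 0.50, edgeR adjusted p = 0.347). The replicates of Rps27a also differed in sorted cells, at 384 and 244 CPM in control and 334 and 196 in shRNA. Of the 75-base windows of Rpl13, 79.6% were shared with other annotated genes, and of those of Rps27a 47.9%. Whether this bears on their spread was not tested.

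The knockdown and knock-in experiments share no library, so the difference between their responses could be tested. No member passed (edgeR, interaction over all 8 libraries; 0.00639% of 15641 genes called in each direction). The interaction, the knockdown response minus the knock-in response, was below 0 for 77 of 80 members, with a median of -0.31 against -0.02 for all genes, and 16 members had an unadjusted p under 0.05 on that side, beside 4.4% of all genes. Above 0 lay 3 members, beside 48.1% of all genes, and none had such a p there, beside 2.64%. Rpl10 had the smallest p, at an interaction of -0.77 and an adjusted p of 0.381. In 15 members, 18.8% beside 3.8% of the genes tested in both, the shRNA libraries both lay below the controls and the PlyA-KI libraries both above wild type. Taken singly, 36.2% of members lay below in shRNA and 67.5% above in PlyA-KI, beside 19.8 and 23.7% of all genes. Whether these shifts go together in the same members was not tested. Strain, age and the sort differ between the experiments and cannot be told apart from the manipulation.

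Sorted control cells at E16.5 against whole wild-type cortex at E13.5 is the last comparison. Age, strain, electroporation, sort and depth differ together here and cannot be told apart, and the comparison shares its controls with the first and its wild-type libraries with the second. Some members differed by several-fold. Of 80 tested, 26 were called higher in sorted cells, 32.5% beside 30.3% of 15111 genes, and 22 lower, 27.5% beside 31.3%, so neither share stood far from the background. Above 0 lay 41 members (49.2% of all genes) and below 0 lay 39 (50.8%). The groups did not overlap in 33 members on the higher side and 32 on the lower, 41.2 and 40.0% beside 40.4 and 41.6% of all genes. The median was 0.02, and 24 members, 30% of those tested, differed by more than 1.5-fold, beside 52.1% of all genes. With the length trend removed, the median was -0.30, with 10 members called higher, beside 30.5% of all genes, and 47 lower, beside 30.3%.

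Rpl29 and Rpl21, both lower in sorted cells, had the largest differences. Rpl29, of the large subunit surface, read 25.4 and 31.6 CPM in control and 270 and 318 in wild type, a log2 fold change of -3.37 ± 0.14 (SE, edgeR adjusted p = 5.73e-09). Rpl21 read 13.7 and 13.2 against 97.0 and 107 CPM (-2.93, adjusted p = 6.59e-09). Rps18, of the small subunit head, read 81.9 and 69.7 against 343 and 385 CPM (-2.27, adjusted p = 2.76e-08). In the same order, the shRNA cells read 21.9 and 24.3, 11.1 and 23.9, and 81.7 and 61.7 CPM, and the PlyA-KI cortices 303 and 357, 116 and 131, and 390 and 430 CPM. For each of these members all 4 libraries of sorted cells lay below all 4 of whole cortex, and neither manipulation gave a call. Rpl26, Rpl34, Rps2 and Rpl35a followed, with log2 fold changes of -2.09, -1.93, -1.56 and -1.13, and then Rpl3 at -0.90, Rpsa, the laminin receptor protein, at -0.83, and Rpl7l1 at -0.70.

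Of the members called higher in sorted cells 16 belong to the large subunit and 10 to the small one. These were 33.3 and 31.2% of the members tested in each subunit, beside 30.3% of all genes. Short genes had the smallest p. Rps29 read 392 and 246 CPM in control and 63.9 and 67.0 in wild type, a log2 fold change of 2.27 ± 0.17 (SE, edgeR adjusted p = 4.66e-07). Rps28, of 328 bases the shortest member, read 267 and 213 against 69.4 and 71.2 CPM (1.76). Rps27 had 1.24, Rpl36 1.16, Rplp2 1.01, Rps20 0.91, Rps19 0.64, Rps21 0.61 and Rps9 0.53. With the length trend removed, Rps9 and Rps19 were no longer called (adjusted p = 0.191 and 0.158) and Rps21 stood at 0.00. Across the 80 members the log2 fold change fell with gene length (Spearman rho -0.39 over genes that share the same 4 libraries, and -0.15 over all genes). With the share of shared windows rho was -0.12 over 79 members.

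**Figure D4:**
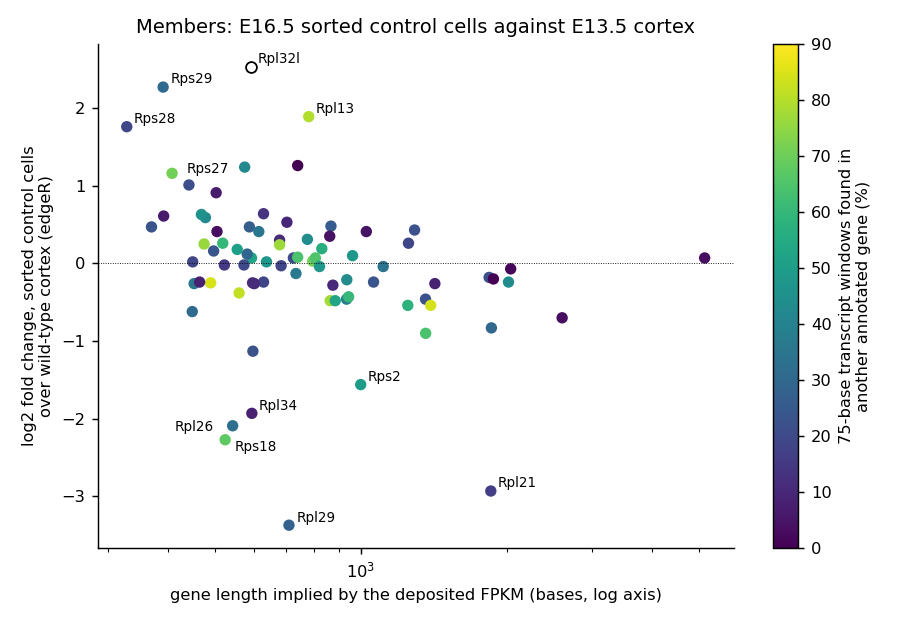
edgeR log2 fold change of each tested member in sorted control cells over wild-type cortex against gene length in bases (log axis), coloured by the percentage of its 75-base windows found in another annotated gene (open circle, no transcript in the annotation). Values run from -3.37 (Rpl29) to 2.53 (Rpl32l), short members lie higher, and the members far from 0 include ones with few and with many shared windows.

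Members with and without a pyrimidine run at the start had like medians: -0.14 and -0.12 under Lockd shRNA, 0.18 and 0.18 in PlyA-KI and 0.02 and -0.02 between control and wild type. Around the members, 29 of 54 ribosome assembly genes were called lower in sorted cells and 5 higher, 53.7 and 9.26% beside 31.3 and 30.3% of all genes, with a median of -0.37, and Dkc1, which modifies ribosomal RNA, had -1.64. Initiation factors were lower in 16 and higher in 4 of 29 (55.2 and 13.8%), with Eif3j1 at -1.88 and Eif1 at 1.05. Of the 7 other TOP messenger RNAs 6 were lower and 1 higher (85.7 and 14.3%). Myc, which drives transcription of ribosomal genes, had 1.83. Radial glia markers were lower in sorted cells, without overlap, for 7 of 8 genes (1088 and 1036 against 2341 and 2388 CPM summed), beside 41.6% of all genes. Neuronal markers were higher for 5 of 8 (5275 and 5700 against 3825 and 3158), beside 40.4% of all genes, and lower for 2. Markers of endothelium (3.51 and 1.46 against 78 and 74.7) and of fibroblasts and meninges (1.87 and 1.04 against 75.4 and 75.5) were lower for 4 of 4 each, and of erythroid cells for 6 of 6. Their part in these differences was not tested.

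**Figure D5:**
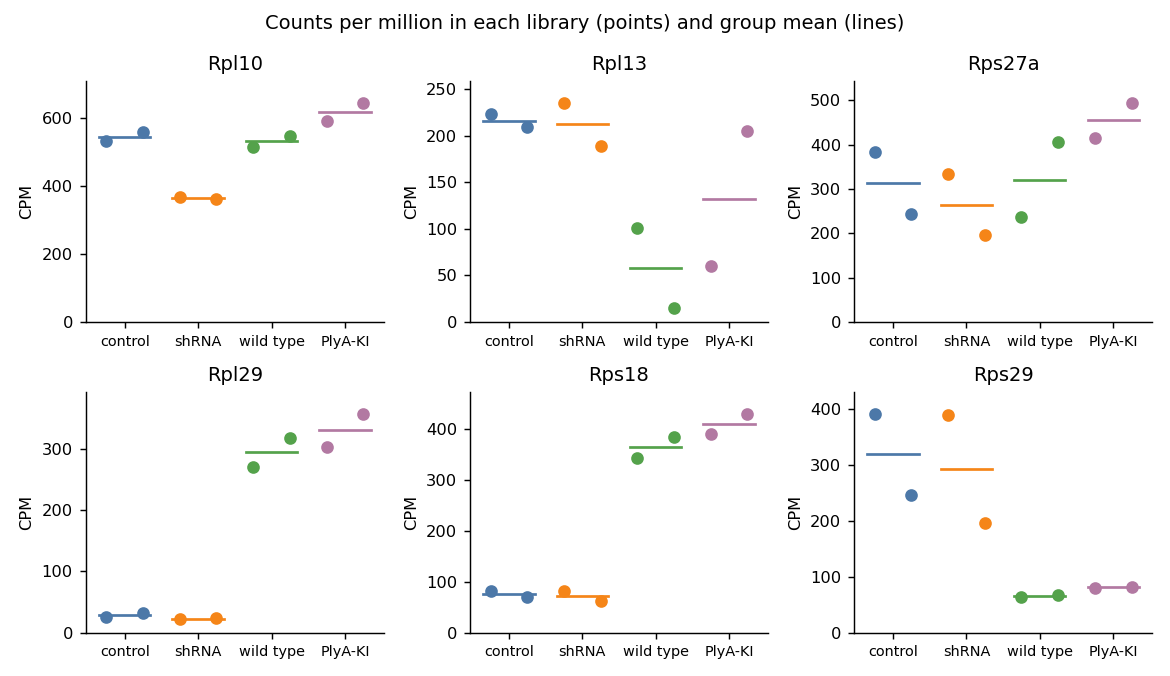
CPM of 6 members in each library (points) with group means (lines), axes from 0. Rpl10 is lowest in shRNA. Rpl13 scatters within wild type and PlyA-KI, and Rps27a within control, shRNA and wild type. Rpl29, Rps18 and Rps29 separate the sorted cells from the whole cortices.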

How the data were processed

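Reads were handled with HISAT2, featureCounts, Trimmomatic and bcl2fastq on mm10, per the submitters' processing notes. No source used here gives versions, annotation, strand setting or the treatment of reads with several positions. The authors deposited raw counts per gene and FPKM for each library. The gene length implied by FPKM was whole (tolerance 0.001) for 100% of genes. Entrez identifiers were named through the RefSeq table of GRCm38.p6 (25274 of 27178, the 1904 others holding 0.426 to 0.97% of counts and staying in the tests).

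CPM is the count over the deposited total, and 3 counts equal 0.063 to 0.234 CPM. Limits cover counting error only. Every comparison has a fit of the 4 libraries in it (R 4.3.3, edgeR 4.0.16: filterByExpr, TMM, quasi-likelihood F-test, Benjamini-Hochberg over all genes, threshold 0.05). The interaction was fitted on all 8. The fits were tested on simulated data. The SE is the absolute log2 fold change over the square root of F. Sequences came from RefSeq promoters of GRCm38.p6 and GENCODE M21 transcripts.

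Named genes are the members past the threshold (up to 10 per direction, or the 5 with the smallest p), paralogs with their partners, members with well known roles, the highest and lowest by FPKM, and up to 3 genes of each related list. Some members named by this rule are not reported here, though they stay in all counts and medians. Members and lists were chosen with earlier results of these data known. Between the replicates of a group the mean chi-square per gene was 12.5 to 25.4, above sampling noise. Alternatives were other scaling, other filters, DESeq2 1.42.0, 1 fit of all libraries, the length trend removed, a replicate block and each library left out.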

Additional observations from a re-analysis of the deposited data

Results flagged for a closer look

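Genes whose symbols look like those of ribosomal proteins but which RefSeq does not list as protein-coding held counts outside the comparisons made here. Rpl6l had a mean of 49.5 CPM over the 8 libraries, between 41.5 and 59.1 in each, and Rps4l a mean of 13.2 CPM. Rps4l read 18.5 to 26.5 CPM in the whole cortices and 3.27 to 5.22 CPM in the sorted cells. Both were above the limit that a count of 0 allows.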

How the results depend on the processing

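The directions of the medians in the knockdown and knock-in comparisons held in all alternatives that kept every library, and the cause of the changes below was not tested. In the knockdown, 1 member, Rpl10, was called with no filter, with all 8 libraries in 1 fit, with DESeq2 and with the replicate number as a block (0.947, 0.339, 0.476 and 1.18% of all genes called), and 14 members lay above 0 with the length trend removed. In the knock-in, 8 members were called with no filter, 2 with DESeq2 and 61 with the replicate block (2.45, 0.913 and 14.2% of all genes called). The number pairs no samples by the labels, and with 2 pairs the data cannot show pairing (correlation of deviations 0.22, 0.16 and -0.01 over all genes, 0.75, -0.84 and 0.02 over the members). With the length trend removed, 20 members lay below 0 in the knock-in, the median was 0.06 and the large minus small median 0.01. Between control and wild type it left 20 members above and 60 below 0, a median of -0.30, a large minus small median of 0.03 and Rps21 at 0.00. With the length trend left in, the control against wild type median was 0.21 over the 14 tested members with under 10% shared windows. Over all tested members it was 0.02. The choice of these 14 was made after seeing the data.

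Leaving out 1 library at a time gave, in the knockdown, 3 to 43 members above 0, 37 to 77 below 0, medians of -0.28 to 0.01 and large minus small medians of -0.05 to 0.05. Rpl21 ran from -0.26 to 0.84, Rpl26 from -0.29 to 0.85, Rpl38 from -0.15 to 0.30 and Rps27l from -0.28 to 0.27. In the knock-in, leaving out 1 library gave 1 to 12 members below 0 and medians of 0.08 to 0.28. Rpl7l1 ran from -0.17 to 0.03, Rplp2 from -0.13 to 0.03 and Rpl8 from -0.07 to 0.06, the last at 0.01 with library totals only. Between control and wild type, medians ran from -0.06 to 0.08 and large minus small medians from -0.07 to -0.02. Shared windows were sought in annotated transcripts, and the search of the genome was not run.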
